A study of Mus musculus with 4 samples.

Results

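The mRNA levels of the enzymes that make and remodel cardiolipin were examined in interscapular brown fat of mice labelled as lacking the transcription factor Sox4 in the Myf5 lineage (Sox4-MKO) and of their controls. The set was chosen by name and function and comprised 9 genes, Prelid1, Tamm41, Cds1, Cds2, Pgs1, Ptpmt1, Crls1, Taz and Lclat1, out of the 55387 rows listed in each library. Here Taz is tafazzin, the gene mutated in Barth syndrome, and not the YAP partner of the same nickname, which has its own entry (Wwtr1) at 19.5 to 26.7 FPKM.

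RNA sequencing had been done on 4 libraries, each from the brown fat of 1 male mouse aged 15 weeks on a C57BL/6 background, housed at 22–24 °C. The 2 control mice were Sox4f/f, with both Sox4 alleles floxed, and are named wild type in the sample labels. The other 2 mice were littermates labelled Sox4-MKO, a genotype that combines the same floxed alleles with a Cre recombinase driven by Myf5. That driver is active in precursors of brown adipocytes and also of skeletal muscle, so the deletion is not restricted to brown fat. Values are FPKM, that is, fragments counted for a gene divided by its transcript length in kilobases and by the mapped total of the library. FPKM adjusts for length and depth, but its sum over all rows differed between the libraries. That sum was 578011 and 544564 in Sox4f/f mice 1 and 2. It was 495145 and 472062 in the mice labelled Sox4-MKO 1 and 2, so comparisons between mice depend on the scaling.

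Cardiolipin is the signature phospholipid of the inner mitochondrial membrane, where it binds respiratory chain complexes, the ATP/ADP carriers and the proteins that shape cristae. Its synthesis starts from phosphatidic acid carried across the intermembrane space, which is activated to CDP-diacylglycerol, joined to glycerol 3-phosphate, dephosphorylated to phosphatidylglycerol and condensed with another CDP-diacylglycerol. The acyl chains are then exchanged in a remodelling step. Brown fat is rich in mitochondria, and cardiolipin is known to be needed there for uncoupled respiration.

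Sox4 mRNA, the check of the genotype, was not lower in the libraries labelled Sox4-MKO. It had 1.98 and 1.06 FPKM in Sox4f/f mice 1 and 2 and 0.98 and 3.06 FPKM in the mice labelled Sox4-MKO 1 and 2, with a log2 fold change of 0.20 (SE 0.43, limma, adjusted p = 0.843). The ranges overlapped, and every direction given for the libraries labelled Sox4-MKO rests on their labels. An estimated 59 to 230 Sox4 fragments were counted per library, which gives a counting error of about 13% at the lowest value. The exons of Sox4 also share 2616 of 4795 bases with Gm26735 on the opposite strand, so this check of the genotype is limited. Depth was estimated at 12000000 to 15900000 fragments per library. Skeletal muscle transcripts moved with the genotype. The summed level of 12 muscle markers was 227 and 814 FPKM in Sox4f/f and 15560 and 3061 FPKM in mice labelled Sox4-MKO, and 10 of the 12 passed an unadjusted p under 0.05. The summed level of 12 brown adipocyte markers was 8569 and 8365 FPKM against 4400 and 5035 FPKM. The tissue, whose labels also name adipocytes as the cell type, thus expressed brown fat genes in all 4 libraries. Highly expressed markers such as Cox8b and Ucp1 carry this sum. Over the 4 libraries Elovl3 was at only 1.31 to 3.24 FPKM and Zic1 at 2.31 to 4.18 FPKM, and both overlapped between genotypes. The 8 macrophage markers summed to 103 and 141 FPKM against 234 and 199 FPKM, the 7 progenitor and fibroblast markers to 305 and 354 FPKM against 749.9 and 688 FPKM, and the 4 mast cell markers to 11.2 and 12.5 FPKM against 38.5 and 33.4 FPKM. Endothelial markers, 7 in number, summed to 301 and 382 FPKM against 203 and 259 FPKM. The ranges of the 6 general adipocyte, 5 erythroid and 5 Schwann cell sums overlapped between genotypes, and B cell markers did not exceed a sum of 2.32 FPKM in any library. Whether any of these other cell types contributed to the values of the cardiolipin genes was not tested. In whole tissue, fewer cells of a type and less RNA per cell cannot be told apart.

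All 9 genes were detected in every library and passed the filter of an averaged FPKM above 1 in at least 1 genotype. In Sox4f/f brown fat the levels spread over a wide range. Crls1, which encodes cardiolipin synthase, was the highest at 132 ± 4.83 FPKM (SD, n = 2 mice), and the next, Prelid1, was at 49.7 ± 0.443 FPKM. Taz followed at 42.3 ± 0.807 FPKM, Ptpmt1 at 33.1 ± 1.71 FPKM, Cds2 at 18.9 ± 0.702 FPKM and Lclat1 at 16.6 ± 0.434 FPKM, with no overlap between neighbours in this order. Pgs1 at 10.8 ± 1.08 FPKM and Cds1 at 10.4 ± 1.89 FPKM overlapped each other, and Tamm41 was the lowest at 6.46 ± 1.15 FPKM. Crls1 alone accounted for 41.5% and 41% of the summed FPKM of the 9 genes in the Sox4f/f mice. In the libraries labelled Sox4-MKO the order was kept except that Lclat1, at 12.0 to 14.5 FPKM, came to overlap Pgs1, at 11.9 to 12.5 FPKM, and Cds1 lay below both.

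**Figure D1:**
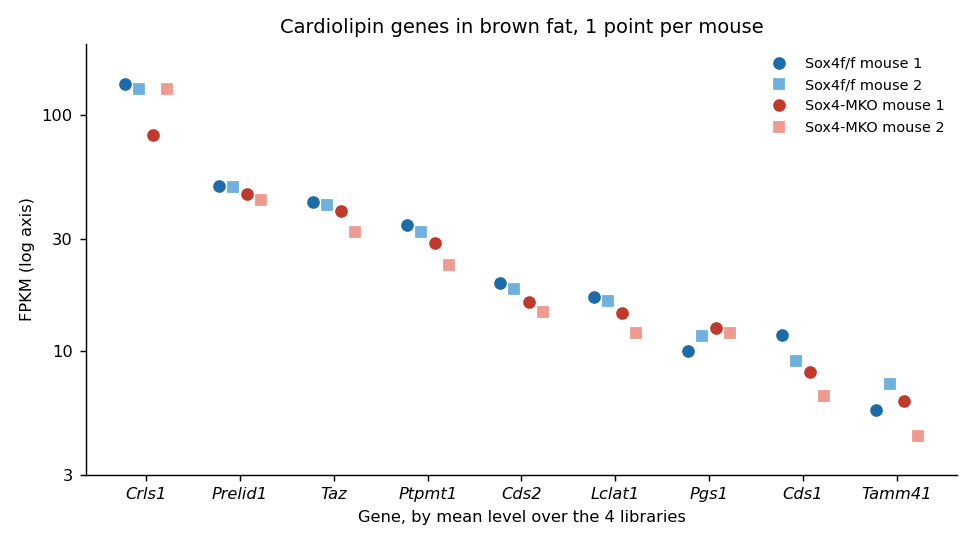
FPKM of the 9 cardiolipin genes (log axis), ordered by mean level, with 1 point for each of the 2 mice of a genotype. Crls1 stands above every other gene in all 4 libraries, and the Crls1 values of the mice labelled Sox4-MKO, 82.5 and 129.6 FPKM, lie far apart.

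The proximal promoters of 4 of the genes are shown because they stand at the ends of the range of responses or carry matches to motifs of factors associated with mitochondrial genes. Each runs 5′ to 3′ on the strand of the gene, with 250 bases before and 50 bases after the annotated start in RefSeq GRCm38.p6, and capitals mark the motif matches. Crls1 is shown for the highest level, at chr2:132846416-132846715 (plus strand), with the E-box CACGTG 203 bases before the start. Ptpmt1, at chr2:90918001-90918300 (minus strand), holds the estrogen-related receptor half-site AAGGTCA 59 bases before the start. Pgs1, at chr11:117986607-117986906 (plus strand), is the gene with the opposite direction. It holds a match to the NRF1 motif (GCGCA and GCGC, 1 base apart), read on the other strand, 58 bases before the start. An ETS core CCGGAAG lies 2 bases before the start. Cds1, at chr5:101764880-101765179 (plus strand), has the most negative fold change and holds the cAMP response element TGACGTCA 112 bases before the start.
Crls1: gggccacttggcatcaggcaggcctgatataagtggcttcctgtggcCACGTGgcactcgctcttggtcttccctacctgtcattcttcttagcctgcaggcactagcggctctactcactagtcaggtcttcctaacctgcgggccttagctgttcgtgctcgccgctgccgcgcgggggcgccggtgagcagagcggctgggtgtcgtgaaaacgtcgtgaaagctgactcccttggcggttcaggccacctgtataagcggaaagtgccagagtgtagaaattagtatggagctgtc
Ptpmt1: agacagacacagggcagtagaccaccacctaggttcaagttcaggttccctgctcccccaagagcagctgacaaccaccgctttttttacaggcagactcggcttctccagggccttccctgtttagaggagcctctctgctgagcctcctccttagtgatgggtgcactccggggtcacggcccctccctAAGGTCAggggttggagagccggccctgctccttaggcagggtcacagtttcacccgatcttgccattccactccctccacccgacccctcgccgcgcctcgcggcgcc
Pgs1: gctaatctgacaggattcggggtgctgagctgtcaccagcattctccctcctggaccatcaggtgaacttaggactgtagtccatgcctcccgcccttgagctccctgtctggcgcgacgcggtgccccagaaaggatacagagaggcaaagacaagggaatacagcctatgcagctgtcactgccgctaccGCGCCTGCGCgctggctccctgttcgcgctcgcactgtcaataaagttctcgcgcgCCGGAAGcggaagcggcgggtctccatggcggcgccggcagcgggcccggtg
Cds1: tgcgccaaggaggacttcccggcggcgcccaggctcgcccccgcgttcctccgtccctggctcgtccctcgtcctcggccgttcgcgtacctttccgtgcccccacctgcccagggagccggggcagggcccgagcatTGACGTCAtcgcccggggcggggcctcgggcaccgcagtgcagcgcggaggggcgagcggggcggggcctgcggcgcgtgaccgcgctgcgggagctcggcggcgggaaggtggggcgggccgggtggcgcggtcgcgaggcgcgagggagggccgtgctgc
Over both strands, CACGTG occurred in 7.15%, AAGGTCA in 4.72%, the NRF1 motif in 4.59%, CCGGAAG in 8.86% and TGACGTCA in 1.79% of 32817 promoters of this length. Among the 10 promoters of 8 of the members, the E-box was present in 2, the receptor half-site in 1, the NRF1 motif in 2, the ETS core in 2 and the cAMP response element in 1. The SOX core ACAAAG, present in 18.7% of all promoters, was found in 1, at an alternative start of Crls1, 201 bases before it. The EBF motif (TCCC and GGGA, 2 bases apart) and the PPAR motif (AGGTCA repeated after 1 base), present in 0.905% and 0.0396% of all promoters, were found in none of the 10. The promoters of Taz and Lclat1 held no match to any of the 8 motifs, and the promoter of Tamm41 was not analysed here. A match describes the letters only.

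None of the 9 genes passed the test between the genotypes. No gene had an adjusted p under 0.05 (limma, Benjamini-Hochberg over 12877 genes), and none passed an unadjusted p under 0.05 in either direction, against 8.28% of all tested genes lower and 7.95% higher in the libraries labelled Sox4-MKO. Adjusted p-values of the 9 genes ran from 0.357 to 0.599, and no gene of the 12877 reached an adjusted p under 0.05 (0% called). For 6 of the 9, the 2 mice labelled Sox4-MKO lay below both Sox4f/f mice, a pattern found in 29.6% of all tested genes, and for 1, Pgs1, they lay above, found in 21.7%. The log2 fold change was below 0 for 8 of the 9, against 56.0% of all tested genes. It was also below 0 for 8 of the 9 on a common median, after quantile normalization and on the general adipocyte genes. The same held on a common sum without mitochondrially encoded genes and Ucp1. It was below 0 for 7 of the 9 after rescaling to a common sum without the muscle markers and for 6 after rescaling to oxidative phosphorylation subunits. After rescaling to those subunits without Cox6a2, Atp5g1 and Atp5g3 it was below 0 for 1. The median of the 9 was -0.28 on the log2(FPKM + 1) scale (range -0.45 to 0.16), and the median of all tested genes was -0.05. Leaving out Sox4-MKO mouse 1 put 2 genes past the unadjusted threshold (Ptpmt1 and Taz), and leaving out Sox4-MKO mouse 2 put 1 past it (Crls1). In each of these fits a genotype has 1 mouse, which is assumed to vary like the 2 of the other genotype. With all 4 libraries, Cds1 passed the unadjusted threshold when the mouse number was added as a block, and Ptpmt1 passed it after scaling to a common median. With 2 mice in each genotype, the smallest two-sided p of an exact permutation test is 0.333.

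**Figure D2:**
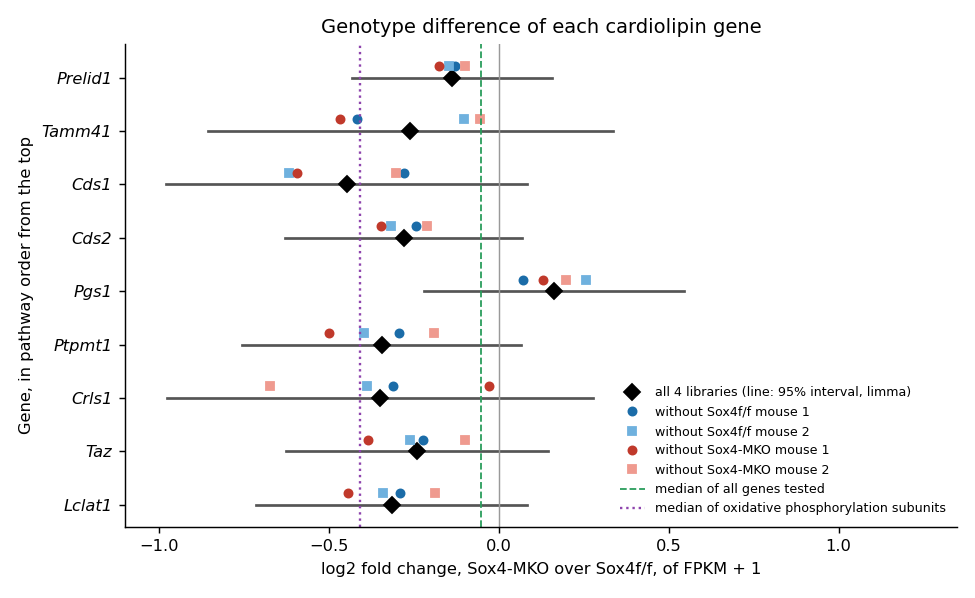
Log2 fold change of log2(FPKM + 1), libraries labelled Sox4-MKO minus Sox4f/f, for each of the 9 genes with its 95% confidence interval from limma, the values obtained when each library was left out, and lines at the median of all tested genes (-0.05) and of the oxidative phosphorylation subunits (-0.41). All 9 intervals include 0, and Pgs1 is the only estimate above 0 under the deposited scaling, whereas the direction turns for 7 further genes when the values are rescaled to oxidative phosphorylation subunits without Cox6a2, Atp5g1 and Atp5g3.

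The entry of phosphatidic acid and its activation were represented by 4 genes. Prelid1 encodes the carrier that moves phosphatidic acid across the intermembrane space together with Triap1. It lies at chromosome 13 from 55320500 to 55325272 on the plus strand (GRCm38) and had 50.0 and 49.4 FPKM in Sox4f/f mice 1 and 2 and 46.3 and 43.9 FPKM in the mice labelled Sox4-MKO 1 and 2. Both Sox4f/f mice were higher, with a narrow gap. On the log2 scale the difference was -0.14 (SE 0.11, 95% confidence interval -0.43 to 0.16, limma, adjusted p = 0.568). Its direction turned after rescaling to the oxidative phosphorylation subunits or to a common sum without the muscle markers. The exons of Prelid1 share 1258 of 2726 bases with Rab24 on the opposite strand, and whether fragments were assigned by strand is not given in the sources used here. Rab24 had 20.8 and 23.6 FPKM against 23.3 and 15.8 FPKM.

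Tamm41 encodes the mitochondrial CDP-diacylglycerol synthase (chromosome 6, 115004381 to 115037876, minus strand). It had 5.65 and 7.27 FPKM in Sox4f/f and 6.14 and 4.37 FPKM in mice labelled Sox4-MKO. The genotypes overlapped, since Sox4-MKO mouse 1 was above Sox4f/f mouse 1. Its log2 fold change was -0.26 (SE 0.23, 95% confidence interval -0.86 to 0.34, limma, adjusted p = 0.592). It came to -0.47 when Sox4-MKO mouse 1 was left out and to -0.05 when Sox4-MKO mouse 2 was, so its size also depended on the library used. It was the most thinly sampled of the 9, with an estimated 81 to 100 fragments per library, which gives a counting error of about 11% at the lowest value.

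Cds1 and Cds2 encode the CDP-diacylglycerol synthases of the endoplasmic reticulum. Cds1 (chromosome 5, 101765130 to 101823858, plus strand) had 11.7 and 9.06 FPKM in Sox4f/f and 8.18 and 6.495 FPKM in mice labelled Sox4-MKO. Both Sox4f/f mice were higher, with mouse 1 of each genotype above mouse 2. The log2 fold change of -0.45 (SE 0.20, 95% confidence interval -0.98 to 0.08, limma, adjusted p = 0.357) was the most negative of the 9. Cds2 (chromosome 2, 132263148 to 132312050, plus strand) had 19.4 and 18.4 FPKM against 16.2 and 14.6 FPKM. Its genotypes did not overlap either, and its log2 fold change was -0.28 (SE 0.13, 95% confidence interval -0.63 to 0.07, limma, adjusted p = 0.372). The FPKM ratio of Cds2 to Cds1 was 1.65 and 2.03 in Sox4f/f and 1.97 and 2.25 in the libraries labelled Sox4-MKO, so that Cds2 was the more abundant isoform in every mouse and the ratios overlapped between genotypes.

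The backbone of cardiolipin is built by Pgs1, Ptpmt1 and Crls1 in turn. Pgs1, which makes phosphatidylglycerol phosphate and is regarded as the committed step (chromosome 11, 117986292 to 118024011, plus strand), had 10.03 and 11.6 FPKM in Sox4f/f and 12.5 and 11.9 FPKM in mice labelled Sox4-MKO. Both mice labelled Sox4-MKO were higher, by a gap to Sox4f/f mouse 2 smaller than the spread within Sox4f/f. The log2 fold change was 0.16 (SE 0.15, 95% confidence interval -0.22 to 0.55, limma, adjusted p = 0.599). It stayed above 0 in each of the 18 alternatives run, but few of these could have turned it. The block, the FPKM limits and the fit without moderation left the estimate as it was. Leaving out a mouse cannot turn a gene whose genotypes do not overlap, and most rescalings raised the median of all genes. After scaling to a common median Pgs1 was at 0.14, and after quantile normalization at 0.17.

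Ptpmt1 encodes the phosphatase that removes the phosphate from the Pgs1 product (chromosome 2, 90908716 to 90918258, minus strand). It had 34.3 and 31.9 FPKM in Sox4f/f and 28.9 and 23.1 FPKM in mice labelled Sox4-MKO. Neither mouse labelled Sox4-MKO reached the Sox4f/f range. Its log2 fold change was -0.34 (SE 0.16, 95% confidence interval -0.76 to 0.07, limma, adjusted p = 0.359). Its exons share 1657 of 3684 bases with Kbtbd4 on the opposite strand, which had 10.9 and 9.62 FPKM against 8.64 and 8.09 FPKM. The FPKM ratio of Ptpmt1 to Pgs1, its supplier of substrate, was 3.42 and 2.76 in Sox4f/f and 2.31 and 1.94 in the libraries labelled Sox4-MKO. These ratios could not overlap, because Ptpmt1 was lower and Pgs1 higher in both mice labelled Sox4-MKO.

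Crls1, which joins phosphatidylglycerol and CDP-diacylglycerol (chromosome 2, 132846666 to 132866785, plus strand), had 136 and 129 FPKM in Sox4f/f and 82.5 and 129.6 FPKM in mice labelled Sox4-MKO. Only Sox4-MKO mouse 1 was below the controls, and Sox4-MKO mouse 2 lay between them. Crls1 had a log2 fold change of -0.35 (SE 0.24, 95% confidence interval -0.98 to 0.28, limma, adjusted p = 0.503), and it came to -0.67 when Sox4-MKO mouse 2 was left out and to -0.03 when Sox4-MKO mouse 1 was. One library thus decided its size. Sox4-MKO mouse 1 was also the library with the highest muscle sum, 15560 FPKM, and its part in the Crls1 value was not tested.

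The remodelling step was represented by Taz and Lclat1. Taz (chromosome X, 74281912 to 74290151, plus strand) encodes the transacylase that installs the mature acyl chains, and had 42.8 and 41.7 FPKM in Sox4f/f and 39.4 and 32.1 FPKM in mice labelled Sox4-MKO. Both mice labelled Sox4-MKO were lower, mouse 2 by the wider margin. The log2 fold change was -0.24 (SE 0.15, 95% confidence interval -0.63 to 0.14, limma, adjusted p = 0.464), and its direction turned under both rescalings to oxidative phosphorylation subunits. Lclat1 encodes the lysocardiolipin acyltransferase (chromosome 17, 73107985 to 73243368, plus strand) and had 16.9 and 16.3 FPKM against 14.5 and 12.0 FPKM. Its genotypes did not overlap, and its log2 fold change was -0.31 (SE 0.15, 95% confidence interval -0.71 to 0.08, limma, adjusted p = 0.378). The FPKM ratio of Taz to Lclat1 was 2.53 and 2.56 in Sox4f/f and 2.72 and 2.69 in the libraries labelled Sox4-MKO.

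The 2 libraries labelled Sox4-MKO differed from each other in the cardiolipin genes. Crls1 was the only gene higher in mouse 2 than in mouse 1, while the other 8 were lower in mouse 2. The summed FPKM of the 9 genes was 326 and 314 in Sox4f/f and 255 and 278 in the libraries labelled Sox4-MKO, and without Crls1 it was 191 and 185.5 against 172 and 148.5. The Crls1 share of the sum was accordingly 32.4% in Sox4-MKO mouse 1 and 46.6% in mouse 2, on either side of the Sox4f/f shares. Relative to the Sox4f/f mean, the median log2 level of the 9 genes was 0.02 and -0.02 in the Sox4f/f mice and -0.19 and -0.39 in the mice labelled Sox4-MKO.

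**Figure D3:**
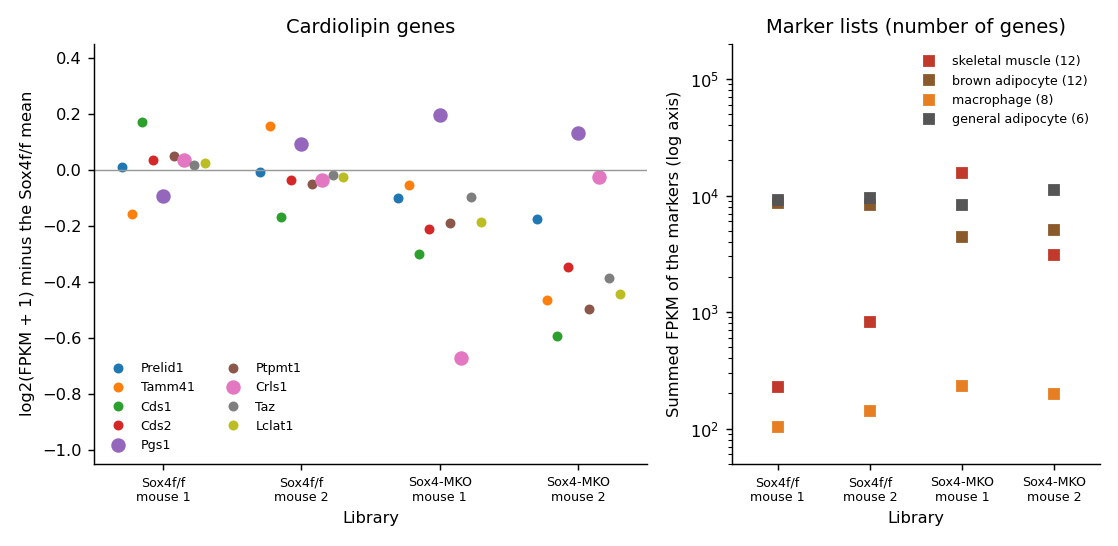
Log2(FPKM + 1) of each cardiolipin gene minus its Sox4f/f mean, plotted for the 4 libraries separately (left), beside the summed FPKM of 4 marker lists in the same libraries (right, log axis). In Sox4-MKO mouse 2 the genes other than Crls1 and Pgs1 lie below the controls, and in Sox4-MKO mouse 1 Crls1 is the gene farthest below them, while the muscle sum is highest there at 15560 FPKM.

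The nuclear-encoded subunits of oxidative phosphorylation were taken as a reference for mitochondrial transcripts. Of 78 tested subunits, 44 passed the unadjusted threshold with lower and 3 with higher values, beside 8.28% and 7.95% of all tested genes. Their median log2 fold change was -0.41, compared with -0.28 for the 9 cardiolipin genes. The 3 higher subunits were Cox6a2, a muscle isoform, Atp5g1 and Atp5g3. Per 100 FPKM of the geometric mean of these subunits, the geometric mean of the 9 cardiolipin genes was 4.96 and 4.68 FPKM in Sox4f/f and 4.70 and 5.13 FPKM in mice labelled Sox4-MKO, which overlapped. Without the 3 subunits named, a choice made after their values were seen, it was 4.35 and 4.27 FPKM against 4.66 and 4.92 FPKM. On that last scale Pgs1 had 1.86 and 2.13 FPKM against 2.84 and 3.17 FPKM. It was the only one of the 9 to pass an unadjusted p under 0.05 by limma (log2 fold change 0.54, SE 0.16). Of all 12991 genes tested on that scale, 3394 passed with higher values, so a higher call there is not particular to Pgs1. Prelid1 had 9.27 and 9.09 FPKM against 10.5 and 11.7 FPKM on the same scale, and Crls1 had 25.1 and 23.7 FPKM against 18.8 and 34.5 FPKM.

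**Figure D4:**
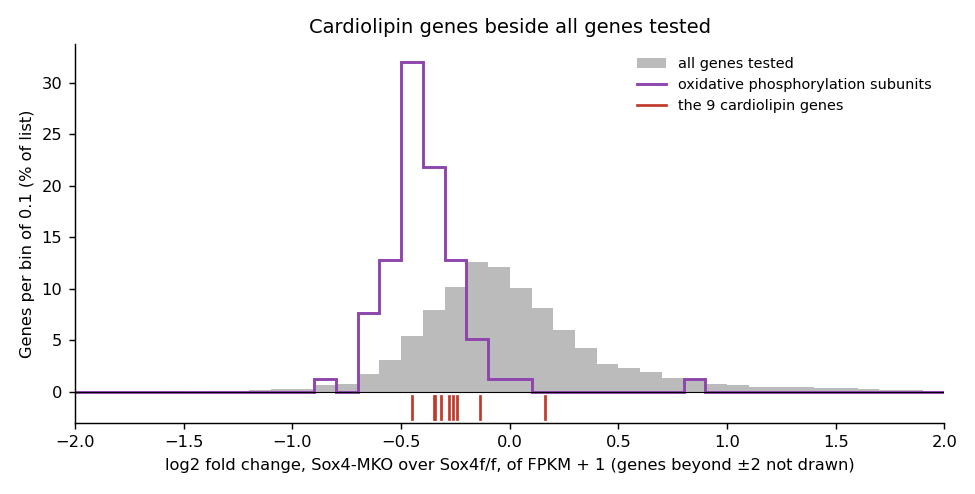
Share of genes (percent of each list, in bins of 0.1) by log2 fold change of FPKM + 1, libraries labelled Sox4-MKO over Sox4f/f, for all 12877 tested genes (grey) and the 78 oxidative phosphorylation subunits (line), with the 9 cardiolipin genes as ticks. The medians are -0.05, -0.41 and -0.28, and under rescaling to the subunits without Cox6a2, Atp5g1 and Atp5g3 the median of the 9 genes is 0.09.

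Genes on either side of the cardiolipin route were taken from 5 lists with 60 members, of which 56 passed the filter. Of these, 10 were lower and 1 was higher in mice labelled Sox4-MKO by the unadjusted threshold of 0.05, beside 8.28% and 7.95% of all tested genes, and none passed after adjustment (limma, adjusted p from 0.196 to 0.290 for the 11). Fewer of the related genes were lower when Sox4f/f mouse 1 or Sox4f/f mouse 2 was left out, and the same was true of all tested genes. The count of higher genes became 2 without Sox4f/f mouse 2 and 3 without Sox4-MKO mouse 2. After rescaling to the oxidative phosphorylation subunits 0 were lower and 6 higher, beside 131 lower and 2173 higher of all 12931 genes tested there. After rescaling to a common sum without the muscle markers 1 was lower and 3 higher, beside 274 lower and 2013 higher of 12917.

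Among 6 tested partners of lipid transfer, 1 was lower. The lists are short, and single genes decide their counts. Prelid3b, which carries phosphatidylserine with Triap1, had 85.1 and 86.2 FPKM in Sox4f/f and 47.9 and 66.7 FPKM in mice labelled Sox4-MKO (log2 fold change -0.59, SE 0.19, limma, adjusted p = 0.256). Both mice labelled Sox4-MKO were well below the controls. Triap1 itself had 31.3 and 29.6 FPKM against 26.8 and 24.6 FPKM and did not pass the unadjusted threshold.

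Of 11 genes that supply phosphatidic acid, 2 were lower. Gpat4, a glycerol-3-phosphate acyltransferase of the endoplasmic reticulum, had 111 and 79.8 FPKM against 61.5 and 61.5 FPKM (log2 fold change -0.61), and Agpat1, the acyltransferase of the next step, had 94.5 and 102 FPKM against 71.5 and 78.3 FPKM (-0.39). Neither overlapped between the genotypes. Of the 11 genes, 4 were lower and 4 higher without overlap, beside 29.6% and 21.7% of all tested genes. The median of the list was 0.07.

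Of 12 genes of sister phospholipid branches, 1 was lower, a share near the 8.28% of all tested genes. Pisd, which makes phosphatidylethanolamine inside mitochondria, had 36.6 and 33.3 FPKM against 23.5 and 26.8 FPKM (log2 fold change -0.46, limma, adjusted p = 0.243). Both control mice were higher. Of 10 deacylation and turnover genes, Pla2g15, a lysosomal phospholipase, had 19.0 and 18.6 FPKM against 11.2 and 14.0 FPKM (log2 fold change -0.55). The other lower gene of that list was Hadhb, a subunit of the trifunctional protein of fatty acid oxidation (-0.41), whose partner Hadha, which also carries a lysocardiolipin acyltransferase activity, had 439 and 446 FPKM against 378 and 350 FPKM and did not pass the unadjusted threshold.

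Of 17 genes for cristae and cardiolipin-binding proteins, 4 were lower and 1 was higher. The lower ones were Ucp1, the uncoupling protein (log2 fold change -1.06), the cristae junction subunit Micos13 (-0.47) and the prohibitins Phb and Phb2 (-0.46 and -0.45). The higher one was Ckmt2, the mitochondrial creatine kinase of striated muscle, with 2.75 and 9.54 FPKM against 224 and 62.3 FPKM (log2 fold change 4.24, limma, adjusted p = 0.196). Its order over the 4 libraries was that of the summed muscle markers, whose part in it was not tested. Slc25a4, the ATP/ADP carrier abundant in muscle, had 224 and 276 FPKM against 717 and 281 FPKM and did not pass the unadjusted threshold.

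**Figure D5:**
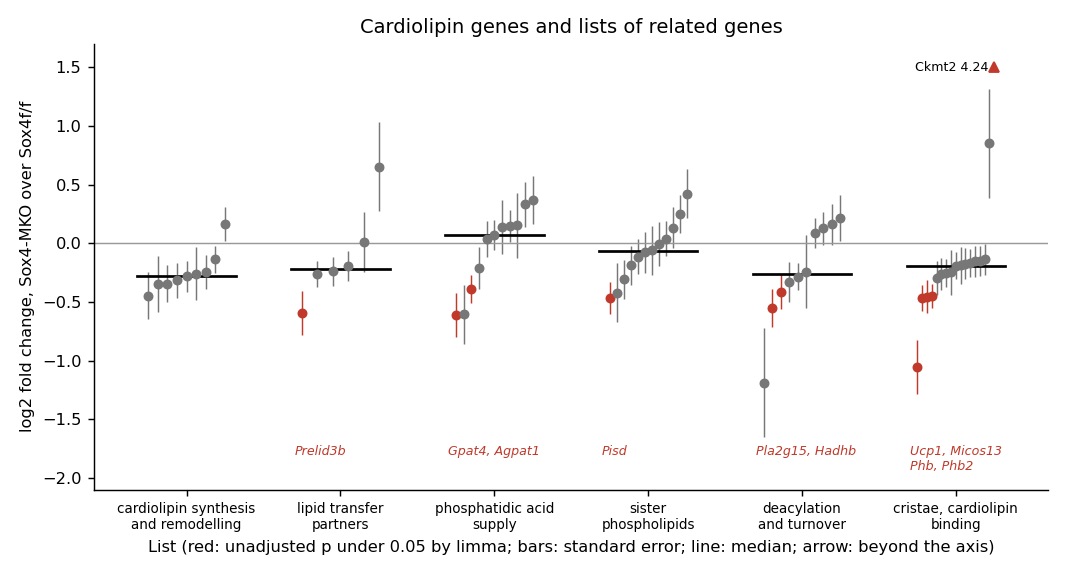
Log2 fold change of the tested genes of the cardiolipin set and of the 5 related lists, with genes at an unadjusted p under 0.05 in red, thin bars for the standard error and a line at the median of each list. Across the related lists 10 genes are called lower and 1 higher, Ckmt2, whose value of 4.24 lies beyond the axis and is marked by an arrow. After rescaling to the oxidative phosphorylation subunits 0 are called lower, beside 131 of all 12931 genes tested there.

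The genes whose pattern over the 4 libraries was nearest to Crls1, by Euclidean distance of centred log2(FPKM + 1), were Siah1a (0.038), Nfia (0.0501), Dbt (0.0531), Fam133b (0.0611) and Hspd1 (0.0665). Each of these 5 had its lowest value in Sox4-MKO mouse 1, as Crls1 had, which follows from picking them by that pattern. Hspd1, the mitochondrial chaperonin, for example had 304 and 304 FPKM in Sox4f/f and 196 and 296 FPKM in mice labelled Sox4-MKO. Nearest to Taz were Llgl1 (0.024), Fam160b2 (0.0353), Fam161b (0.0387), Ndufa11 (0.0392), a subunit of complex I, and Tshz1 (0.04).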

How the data were processed

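RNA from interscapular brown fat of 4 mice had been sequenced, 2 Sox4f/f and 2 labelled Sox4-MKO. Genotypes and mouse numbers come from the sample labels. The methods describe TRIzol extraction and a TruSeq library, and the labels an RNeasy column with DNase digestion followed by strand-specific mRNA libraries. The authors deposited 1 FPKM value per gene and library, with Cufflinks 2.1.1 and Cuffdiff named in the submitters' processing notes together with the build mm10. The aligner, the annotation and any use of strand in counting are not given in the sources used here. p-values measure the spread between these libraries.

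FPKM are not counts, so no count test was made. limma 3.58.1 in R 4.3.3 (eBayes with trend, two-sided) was fitted on log2(FPKM + 1) with a single genotype term, over genes whose mean FPKM exceeded 1 in either genotype, and p-values were adjusted by Benjamini-Hochberg over 12877 genes. Fold changes on this scale understate those of low genes. The code was tested on simulated data. Depth was estimated from the value of 1 fragment in low genes, and its intervals cover counting error only. Positions are those of GRCm38 (GENCODE M21), matched by symbol.

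The members and lists were chosen with earlier results of these data known. Named are Sox4, the 9 members, marker genes, called or leading genes of the related lists, and the 5 genes nearest in pattern to Crls1 and to Taz. Other genes, such as those overlapping a member, were named after their values were seen. As alternatives, the fit was repeated with a replicate block, without each library, with other scalings, FPKM limits of 0.1 and 5 and none, pseudocounts of 0.1 and 0.01, and limma without moderation. Figures were drawn with matplotlib 3.10.9.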

Additional observations from a re-analysis of the deposited data

How the results depend on the processing

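Mouse numbers were shared by the genotypes, but the differences between mice 1 and 2 were not correlated across genotypes (r = -0.0122). With 1 such difference per genotype, this cannot show whether mice of the same number were paired. With the mouse number as a block, 1 cardiolipin gene (Cds1) was lower at an unadjusted p under 0.05 in place of 0, and 1908 genes in place of 2090 passed in either direction. A common median gave 1 (Ptpmt1). Leaving out each library gave 0 to 2 lower cardiolipin genes, a median of -0.39 to -0.19 for the 9, 404 to 1012 lower and 445 to 1559 higher genes among all tested, and 0 to 10 lower and 1 to 3 higher related genes. Limits of FPKM, pseudocounts and quantile normalization did not move these counts by over 1.5 times. Without moderation, 553 genes were higher in place of 1024, and 5 related genes were lower and 0 higher in place of 10 and 1. Rescaling to a common sum without mitochondrially encoded genes and Ucp1 left 5 related genes lower, and 745 of all genes in place of 1066.

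The direction of most of the 9 genes depended on the scaling, though not under every scaling. On a common median and after quantile normalization 8 of the 9 stayed below 0, and 54.5% and 53.5% of all calls were lower. Cds1 stayed below 0 under every scaling. Dividing by a reference that is itself lower raises all genes, and genes that fell less than the reference then lie above 0. Rescaling to the oxidative phosphorylation subunits moved the median of all genes from -0.05 to 0.20 and that of the 9 to -0.015, gave 131 lower and 2173 higher genes in place of 1066 and 1024 and 0 lower and 6 higher related genes, and turned Prelid1 to 0.15 and Taz to 0.041. The next 3 scalings were chosen after seeing the data. The first left the muscle markers out of the sum and also brought the libraries to a common sum, and these 2 steps were not separated. The markers themselves were still scaled and tested under this scaling. With it the median of all genes was 0.16 and that of the 9 was -0.056, with Prelid1 at 0.099. It gave 274 lower and 2013 higher genes, and 1 lower and 3 higher related genes. On the general adipocyte genes, 251 genes and 2 related genes were lower. On the subunits without Cox6a2, Atp5g1 and Atp5g3, the median of all genes was 0.31 and that of the 9 was 0.09, 89 genes were lower and 3394 higher, 0 related genes were lower and 12 higher, and 1 cardiolipin gene was higher (Pgs1). There Prelid1 was at 0.27, Taz at 0.16, Cds2 at 0.11, Tamm41 at 0.09, Lclat1 at 0.072, Crls1 at 0.061 and Ptpmt1 at 0.055, and Cds1 stayed below 0 (-0.079). The share of lower calls among all calls was 51% as deposited, and 36%, 5.69%, 12%, 20.7% and 2.56% under the rescalings without mitochondrially encoded genes and Ucp1, to the subunits, without muscle markers, to adipocyte genes and to the reduced subunits. The cause was not tested. With 2 mice per genotype, log2 differences within the confidence intervals of the 9 genes could not be resolved.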

Other observations

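Of the 60 genes on the related lists, 4 stayed below the filter and were not tested. Prelid3a, the paralog of Prelid3b, had 0.437 and 0.292 FPKM in Sox4f/f and 0.606 and 0.917 FPKM in mice labelled Sox4-MKO. Gpat2 and Them5, an acyltransferase and a thioesterase, were listed above 0 only in Sox4f/f mouse 2, at 0.0584 and 0.142 FPKM. Ckmt1, the ubiquitous mitochondrial creatine kinase, was listed above 0 only in Sox4-MKO mouse 2, at 0.0698 FPKM, whereas the muscle form Ckmt2 was above 2 FPKM in every library.

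Pgs1, the gene with the opposite direction as deposited, was also used as a divisor. Scaled to Pgs1, Taz had a ratio of 4.27 and 3.60 in Sox4f/f and 3.16 and 2.70 in the libraries labelled Sox4-MKO. Lclat1 had 1.69 and 1.41 against 1.16 and 1.01. These 2 ratios do not depend on the scaling between libraries. They could not overlap between genotypes, because Taz and Lclat1 were lower and Pgs1 higher in both mice labelled Sox4-MKO. The same held for Cds1 over Pgs1, at 1.17 and 0.783 against 0.655 and 0.546, and for Cds2 over Pgs1, at 1.93 and 1.59 against 1.29 and 1.23. Crls1 over Pgs1 was 13.5 and 11.1 against 6.61 and 10.9. Pgs1 was chosen as the divisor after its values were seen, so the ratios are descriptions with no test.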
